A study of Mus musculus with 6 samples.

Results

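Kinesins are motor proteins that move along microtubules with energy from ATP. One set works in dividing cells, where its members separate spindle poles, move or hold chromosomes and build the midzone at which cytokinesis takes place. Another set carries vesicles, mitochondria and other cargo along axons and dendrites and through the cytoplasm, and a few members serve cilia or signalling. In mammals, many genes used in mitosis are repressed in G1 and switched on in G2, and a promoter element called the cell cycle genes homology region (CHR), bound by the MuvB complex, is part of that control. Accessibility of the chromatin at 42 kinesin genes is described here. They are all protein-coding genes of the mouse genome (mm10, GRCm38.p6) whose symbol starts with Kif followed by a digit or with Kifc, out of 21883 protein-coding genes. By textbook role they were sorted into 14 mitotic kinesins, 17 neuronal and transport kinesins and 11 others, which are ciliary, act in signalling, have both roles or have a role that is not settled.

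ATAC-seq, in which the Tn5 transposase marks accessible DNA with sequencing adapters, was made on CGR8 mouse embryonic stem cells carrying a construct that the labels name Cdt1-MD. There were 3 groups with 2 replicates each, named mito, LM and eG1-1 in the labels, which do not spell the names out. Peaks in the LM lists carry the name Telo. The series title speaks of mitotic exit, and mito was taken as the first group, LM as the next and eG1-1 as the last. All cells were untreated and grew without serum in a medium with N2 and B27 supplements, leukemia inhibitory factor, the GSK3 inhibitor CHIR99021 (3 µM) and the MEK inhibitor PD184352 (1 µM). The labels do not say whether replicates were separate cultures. Peak names carry the code NXT1088 in replicate 1 of every group and NXT1106 in replicate 2. These codes were taken as sequencing runs, which the labels do not state.

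Each sample is 1 list of peaks with the authors' own score per peak. There were 24598 and 30446 peaks in the mito lists, 23867 and 20639 in the LM lists, and 32101 and 48396 in eG1-1. Read depth is unknown, so where a gene has no peak it may still be open. A gene is called held by a list where a peak overlaps 1 kb either side of its annotated start or end, and its score is that of the highest such peak; scores rank peaks within a list and are not on a known common scale between lists. LM replicate 2 held the fewest protein-coding genes, 35.7%, against 42.1% to 52.7% in the 5 other lists. Of 10 stem cell genes used as markers, 9 and 7 were held in the mito lists, 5 and 4 in the LM lists, and 3 and 7 in eG1-1. Zfp42 was held in all 6 lists (127 to 340), Pou5f1 had no peak in LM replicate 2 and eG1-1 replicate 1, and Esrrb had none in any list. Fibroblast genes were held at 1 to 3 of 10 and blood genes at 0 to 1 of 10, with Ptprc, Spi1, Dcn and Pdgfra at none. Col1a1 of the fibroblast genes was held in all 6 lists (53 to 122). Thy1 of the fibroblast genes and Cd68 of the blood genes were held in every list but mito replicate 1. Neuronal marker genes were held at 4 to 6 of 10, among them Tubb3 and Syt1 in all 6 lists, while Rbfox3, Dcx and Elavl3 had no peak in any list.

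The promoters of the 2 main classes differed in their letters. RefSeq's promoter table for GRCm38.p6, with 250 bases before and 50 after each start, had an entry for 33 of the 42 kinesins, of which 13 were mitotic, 11 neuronal and transport, and 9 others. The CHR letters TTTGAA, searched on both strands, stood in the promoters of 11 of the 13 mitotic kinesins (84.6%) and in 0 of the 11 neuronal and transport kinesins, against 16.5% of the promoters of 17491 protein-coding genes with an entry. In 9 of the 13 mitotic promoters (69.2%) a match began within 30 bases of the start, against 2.55% of all promoters, a distance chosen after the positions were seen. The CCAAT letters, the core of the box bound by NF-Y, stood in 9 of 13 mitotic promoters (69.2%) and 3 of 11 neuronal and transport promoters (27.3%), against 39.0% of all. Both motifs together stood in 8 of 13, in 0 of 11 and in 6.68% of all. The letters TTCCCGC, a core of the E2F site, were in 0 of the 13 mitotic and 0 of the 11 neuronal and transport promoters, against 5.99% of all. The motifs were searched as fixed letters, no 2 matches overlapped in the kinesin promoters, and a match is a description, not a binding site. Kifc1 and Kifc5b, whose promoters are near copies of each other, both hold the 2 motifs and are counted separately among the 13.

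The following mitotic promoters are shown with every match to the 3 motifs in capitals on the strand of the gene, so that TTCAAA and ATTGG are the CHR and the CCAAT box read from the other strand. They are Kif22 at chr7:127042371-127042670 (minus strand), Kifc5b at chr17:26916841-26917140 (plus strand), Kif14 at chr1:136467598-136467897 (plus strand), Kif18b at chr11:102925075-102925374 (minus strand), Kifc1 at chr17:33890584-33890883 (minus strand) and Kif23 at chr9:61946750-61947049 (minus strand). The first 5 were taken in order of median best score at either gene end, and Kif23 was added after its values were seen. That score need not come from the printed window. For Kif22 it came from the 3′ end, and no list had a peak over the printed window of Kif14. Position 0 is the first transcribed base.
Kif22: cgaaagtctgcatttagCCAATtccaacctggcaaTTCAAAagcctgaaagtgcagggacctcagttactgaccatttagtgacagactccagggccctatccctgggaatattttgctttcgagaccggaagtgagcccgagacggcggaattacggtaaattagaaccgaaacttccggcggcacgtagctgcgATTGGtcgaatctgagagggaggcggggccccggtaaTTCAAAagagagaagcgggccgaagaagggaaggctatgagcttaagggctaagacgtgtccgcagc
Kifc5b: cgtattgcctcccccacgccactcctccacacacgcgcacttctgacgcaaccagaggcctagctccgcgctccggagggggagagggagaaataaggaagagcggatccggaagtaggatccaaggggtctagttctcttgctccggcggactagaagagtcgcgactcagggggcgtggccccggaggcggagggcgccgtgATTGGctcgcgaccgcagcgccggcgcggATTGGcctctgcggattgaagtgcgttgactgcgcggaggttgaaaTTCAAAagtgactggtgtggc
Kif14: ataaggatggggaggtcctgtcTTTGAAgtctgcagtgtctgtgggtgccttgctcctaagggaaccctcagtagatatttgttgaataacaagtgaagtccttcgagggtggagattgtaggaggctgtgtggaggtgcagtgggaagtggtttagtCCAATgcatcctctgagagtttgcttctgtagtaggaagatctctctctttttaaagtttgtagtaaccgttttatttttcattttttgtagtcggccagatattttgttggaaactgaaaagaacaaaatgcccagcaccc
Kif18b: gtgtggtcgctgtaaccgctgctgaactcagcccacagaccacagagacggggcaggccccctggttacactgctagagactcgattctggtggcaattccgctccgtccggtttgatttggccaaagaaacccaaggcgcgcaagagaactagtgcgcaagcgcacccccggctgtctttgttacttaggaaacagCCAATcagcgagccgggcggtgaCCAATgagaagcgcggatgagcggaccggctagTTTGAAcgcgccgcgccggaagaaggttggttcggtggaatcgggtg
Kifc1: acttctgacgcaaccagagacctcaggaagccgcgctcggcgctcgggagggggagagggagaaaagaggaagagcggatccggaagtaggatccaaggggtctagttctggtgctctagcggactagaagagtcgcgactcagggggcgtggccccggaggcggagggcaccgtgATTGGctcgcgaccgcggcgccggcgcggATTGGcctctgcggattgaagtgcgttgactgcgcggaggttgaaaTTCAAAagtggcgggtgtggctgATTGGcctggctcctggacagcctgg
Kif23: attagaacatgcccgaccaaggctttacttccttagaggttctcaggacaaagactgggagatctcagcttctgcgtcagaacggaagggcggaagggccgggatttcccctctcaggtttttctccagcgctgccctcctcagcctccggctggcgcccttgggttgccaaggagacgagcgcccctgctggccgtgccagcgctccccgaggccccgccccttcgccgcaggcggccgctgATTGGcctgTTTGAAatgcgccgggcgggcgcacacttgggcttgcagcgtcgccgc
In Kif23 the CHR letters begin 2 bases after the start base and in Kif18b 3 bases after it, each with a CCAAT box upstream. In Kif22 the nearer CHR match begins at −17, and in Kif14 the single match lies farther out, at −228. The promoters of Kifc1 and Kifc5b, 2 copies of the gene for a motor that moves towards microtubule minus ends, were aligned, and between the first and last paired base 249 of 272 positions were identical (91.5%), so reads may have been assigned to either copy, and their values are uncertain to that extent.

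Of the neuronal and transport kinesins, the 3 with the highest scores among those with an entry are shown for contrast, Kif1c at chr11:70700298-70700597 (plus strand), Kif1b at chr4:149307684-149307983 (minus strand) and Kif13a at chr13:46929669-46929968 (minus strand). In these the CCAAT boxes of Kif1b are the only matches.
Kif1c: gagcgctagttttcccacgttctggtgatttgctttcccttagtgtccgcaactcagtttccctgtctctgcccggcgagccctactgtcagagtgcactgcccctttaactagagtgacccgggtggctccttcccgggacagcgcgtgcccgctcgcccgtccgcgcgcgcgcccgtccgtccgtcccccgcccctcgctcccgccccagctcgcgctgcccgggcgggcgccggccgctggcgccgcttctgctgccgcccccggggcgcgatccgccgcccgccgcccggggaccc
Kif1b: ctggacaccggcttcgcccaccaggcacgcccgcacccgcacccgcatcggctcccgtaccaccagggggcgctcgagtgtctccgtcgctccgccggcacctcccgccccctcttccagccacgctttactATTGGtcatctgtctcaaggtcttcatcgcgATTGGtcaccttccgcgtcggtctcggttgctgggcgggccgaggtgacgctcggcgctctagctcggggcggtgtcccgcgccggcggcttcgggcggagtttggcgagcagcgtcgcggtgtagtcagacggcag
Kif13a: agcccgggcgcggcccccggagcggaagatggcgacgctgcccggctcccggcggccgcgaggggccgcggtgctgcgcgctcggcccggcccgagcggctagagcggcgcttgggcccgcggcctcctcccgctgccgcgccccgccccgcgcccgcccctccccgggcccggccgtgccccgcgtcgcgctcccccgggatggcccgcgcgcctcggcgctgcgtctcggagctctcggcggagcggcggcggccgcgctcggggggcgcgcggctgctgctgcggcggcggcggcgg
These promoters were rich in G and C, with 73.3% in Kif1c, 69.7% in Kif1b and 86.7% in Kif13a. The median was 60.7% over the 13 mitotic promoters and 69.3% over the 11 neuronal and transport promoters, against 56.3% over all promoters; the part of base composition in the motif counts was not tested. No list had a peak over the promoter window of Kif13a.

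**Figure D1:**
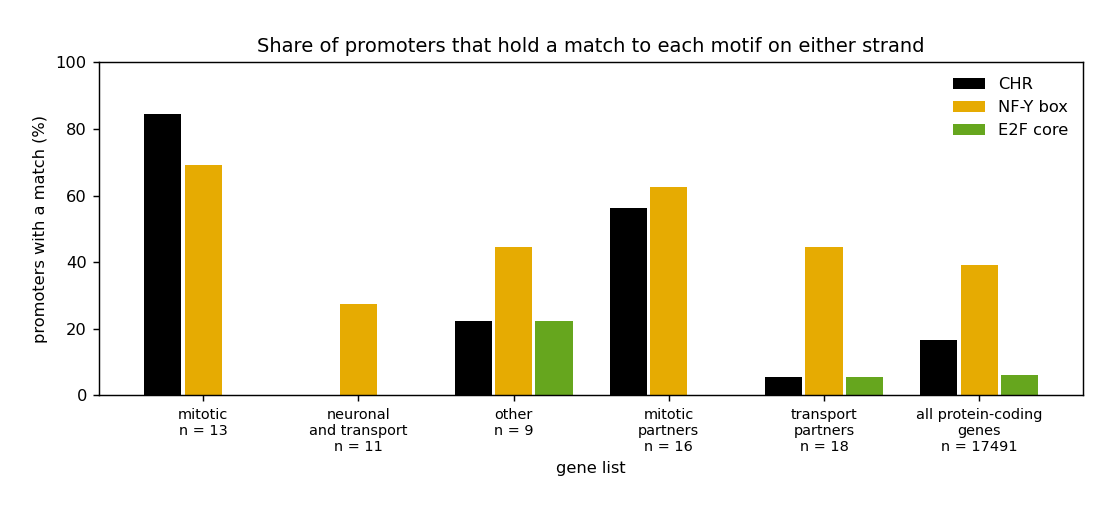
Share of promoters (%) with at least 1 match to each motif on either strand, for the kinesin classes, the partner lists and all 17491 protein-coding genes with an entry; n under each group is the number of promoters. CHR matches stand in 84.6% of mitotic and 0% of neuronal and transport kinesin promoters, against 16.5% of all.

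The promoters of the kinesins' partners were searched too. Of 19 mitotic partners, such as the chromosomal passenger genes Aurkb and Incenp and the midzone gene Prc1, 16 had a promoter entry and 9 of these (56.2%) held the CHR letters. Of 20 transport partners, such as kinesin light chains and dynein and dynactin subunits, 18 had an entry and 1 (5.56%) held them. The share over all promoters was 16.5%. Within 30 bases of the start the counts were 6 of 16 and 0 of 18, against 2.55% of all promoters.

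Mitotic kinesin genes were held by nearly every list. In both mito lists and both LM lists 13 of 14 were held (92.9%), and in eG1-1 12 and 13. Neuronal and transport kinesins were held at 12 of 17 in both mito lists (70.6%), 14 and 9 in the LM lists, and 11 and 14 in eG1-1. Of all protein-coding genes, 46.5% and 50.4% were held in mito, 47.4% and 35.7% were held in LM, and 42.1% and 52.7% were held in eG1-1. Both lists of a group held 13 mitotic and 10 neuronal and transport kinesins in mito, against 43.1% of all genes, 13 and 8 in LM, against 32.7%, and 12 and 11 in eG1-1, against 39.4%. In all 6 lists, 12 of 14 mitotic kinesins (85.7%) and 6 of 17 neuronal and transport kinesins (35.3%) were held, and 20 of the 42 kinesins (47.6%), against 27.8% of all protein-coding genes. The share of mitotic minus that of neuronal and transport kinesins was 22.3 percentage points in each mito list, 10.5 and 39.9 in LM and 21.0 and 10.5 in eG1-1, with means of 22.3 ± 0, 25.2 ± 20.8 and 15.8 ± 7.43 (SD, n = 2 each). The spread between the 2 LM lists was thus wider than any difference between the groups, and LM replicate 2, the shortest list, gave the largest gap. Genes are not replicates, so no test was made between the classes.

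**Figure D2:**
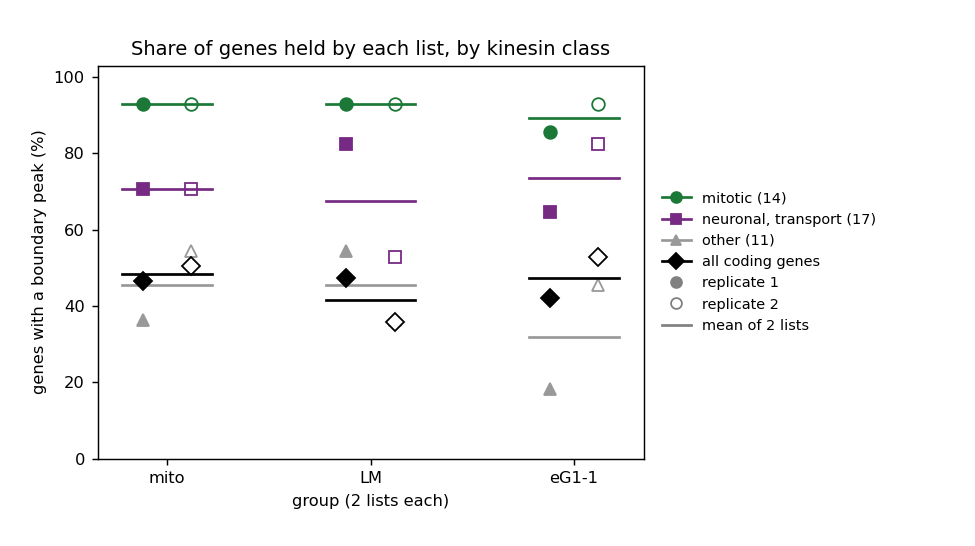
Share of genes (%) held by each list in mito, LM and eG1-1, for 14 mitotic, 17 neuronal and transport and 11 other kinesins and for all protein-coding genes; filled and open points are replicates 1 and 2 and bars their mean. Mitotic kinesins stay between 85.7% and 92.9%, while the neuronal and transport class runs between 52.9% and 82.4%.

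The difference depended on which ends were counted. Several mitotic kinesin genes share an end with a neighbour. The best peak of Kif22 lay at its 3′ end in all 6 lists and also at an end of Maz, and those of Kif20a, Kif18a, Kif4 and Kif15 lay at ends shared with Brd8, Mettl15, Pdzd11 and 1110059G10Rik. Kifc5b shared a best peak with Phf1. With every end within 2 kb of another gene's end left out, 40 kinesins could be measured. Of these, 7 mitotic and 5 neuronal and transport kinesins were held in all 6 lists, against 12 and 6 with all ends. Of all protein-coding genes, 3972 were held in all 6 lists in this setting, against 6078 with all ends, so the count fell for genes in general too. The mean differences between class shares were 10.7 percentage points in mito, 8.04 in LM and 4.46 in eG1-1. With peaks over the promoter window itself, 8 of 13 mitotic (61.5%) and 1 of 11 neuronal and transport kinesins (9.09%) were held in all 6 lists, against 24.6% of genes with an entry. In LM replicate 2 that window was held for 10 of 13 mitotic and 2 of 11 neuronal and transport kinesins, and in the 5 other lists for 9 or 10 and for 6 to 8. The mean differences between class shares over that window were 4.9 percentage points in mito, 36 in LM and 9.44 in eG1-1.

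**Figure D3:**
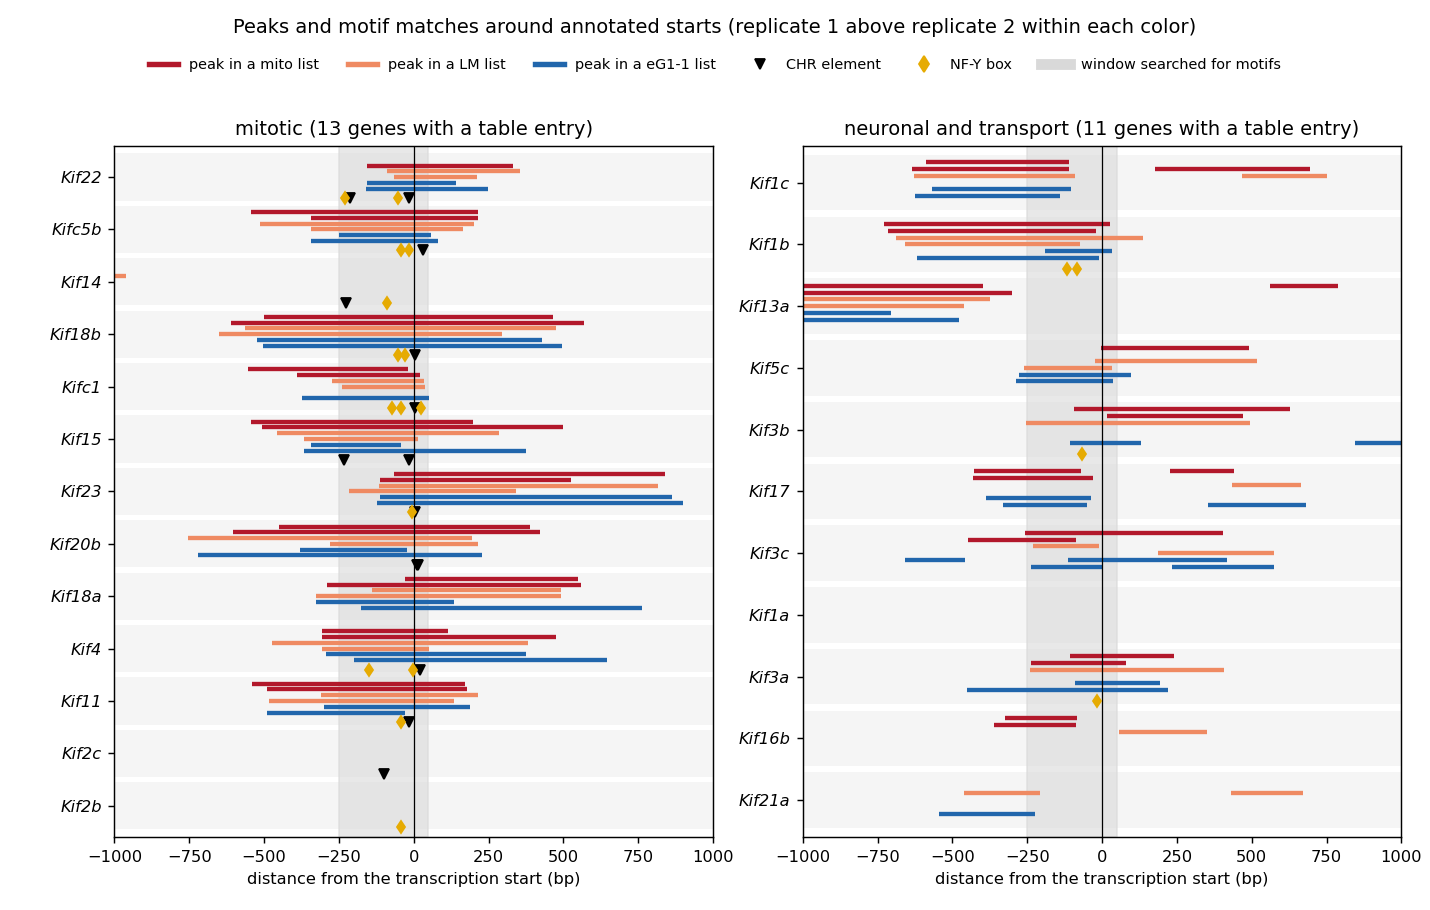
Extent of the peaks (bp from the annotated start; bars that reach past 1000 bp on either side are cut there) in the 6 lists for the 13 mitotic and 11 neuronal and transport kinesins with a promoter entry, in order of score, with triangles at CHR matches and diamonds at NF-Y box matches inside the grey window searched. Peaks of 10 mitotic kinesins lie over the start and 9 of these have CHR matches; no neuronal or transport kinesin has one.

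For most mitotic kinesins with CHR letters, a peak covered a match in most lists. Most of these promoters have a match within 30 bases of the start, so a peak over the start tends to cover it. Kif18a, without CHR letters, also had a peak over its start in all 6 lists. The share covered over all promoters with CHR letters was not computed. For Kif15, Kif18b, Kif23, Kif4 and Kifc5b a peak covered a CHR match in 6 of 6 lists, for Kif11, Kif20b and Kif22 in 5, and for Kifc1 in 4. Kif14 and Kif2c had none there: their best peaks lay at annotated starts farther upstream, centred between −1631 and −1432 bp (Kif14) and between −3853 and −3628 bp (Kif2c) of the start in the promoter table, and no list had a peak over that promoter window.

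Among the motors of spindle assembly, Kif11, the plus-end motor that pushes spindle poles apart, scored 134 and 113 in the mito lists, 126 and 71 in the LM lists, and 35 and 68 in eG1-1. Kif15, which can share this task, scored 130 and 154, 156 and 112, and 64 and 121. Kifc1, the minus-end motor that focuses spindle poles, scored 172 and 165 in the mito lists, 110 and 99 in the LM lists, and 142 in eG1-1 replicate 2, with no peak in eG1-1 replicate 1. Its copy Kifc5b scored 233 and 145, 174 and 107, and 88 and 147 in the same order of lists. The 147 of eG1-1 replicate 2 lay at the 3′ end of Kifc5b, and the peak at its start scored 129 in that list.

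Kinesins of chromosomes had peaks throughout. Kif2c, a depolymerase at centromeres, scored 171 and 128 in the mito lists, 55 and 45 in the LM lists, and 76 and 101 in eG1-1. Kif18a, which dampens chromosome movements at the spindle equator, scored 49 and 198, 105 and 98, and 84 and 159. Kif18b, a depolymerase at astral microtubules, scored 111 and 213, 132 and 144, and 73 and 185. Kif22, a motor on chromosome arms, scored 193 and 192 in the mito lists, 221 and 116 in the LM lists, and 107 and 160 in eG1-1 at the end shared with Maz. Over its own promoter window it had no peak in mito replicate 1 and scored 46 in mito replicate 2, 37 and 78 in the LM lists, and 73 and 133 in eG1-1. Kif4, a chromosome-bound motor that also sets the length of the midzone, scored 46 and 109 in the mito lists, 90 and 84 in the LM lists, and 117 and 150 in eG1-1.

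The motors of cytokinesis were Kif23, Kif20a, Kif20b and Kif14. Kif23, a part of the centralspindlin complex that gathers midzone microtubules, scored 141 and 185 in the mito lists, 134 and 87 in the LM lists, and 68 and 88 in eG1-1. Kif20a, needed to bring passenger proteins to the midzone, scored 100 and 205, 176 and 87, and 141 and 118. Kif20b, which acts in late cytokinesis, scored 62 and 188, 86 and 68, and 127 and 194. Kif14, which recruits citron kinase, scored 172 and 156, 113 and 69, and 163 and 135. Kif2b, a depolymerase related to Kif2c, was the 1 mitotic member with no peak in any list, and the nearest peak to its ends was 171731 bp away, in eG1-1 replicate 1.

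**Figure D4:**
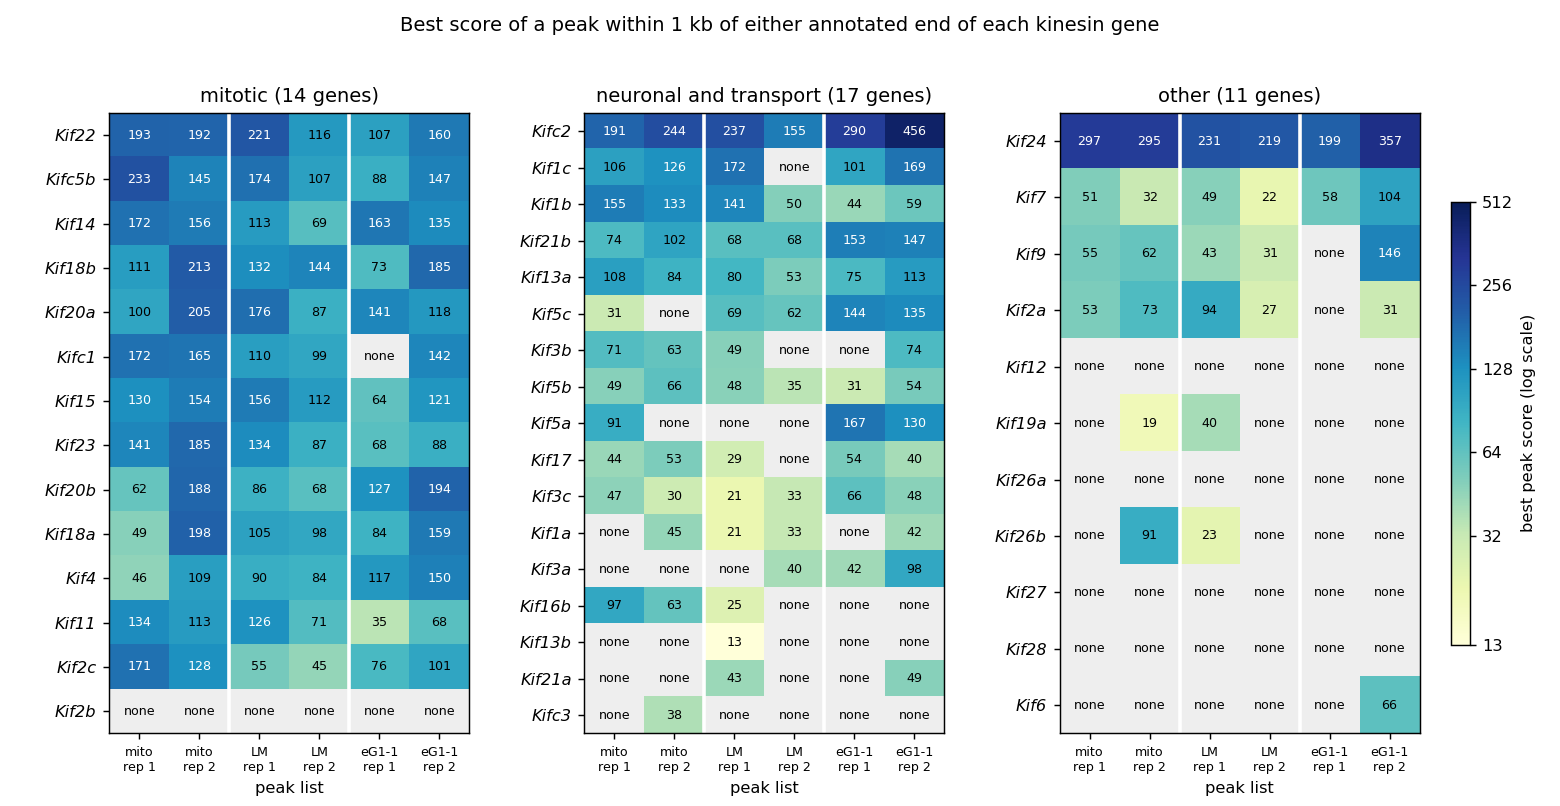
Best score of a peak within 1 kb of either annotated end for all 42 kinesin genes (rows, ordered by median score within each class) in the 6 lists (columns); color follows the score on a log scale and "none" marks no peak. Of the mitotic genes, Kif2b has no peak in any list and Kifc1 none in eG1-1 replicate 1, while 11 of 17 neuronal and transport genes lack a peak in at least 1 list.

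Scores were made comparable between lists by rank. The 6078 protein-coding genes held by all 6 lists, 20 kinesins among them, were given percentiles by best score within each list, so that a percentile says where a gene stands among the same genes. The 12 mitotic kinesins had a median percentile of 63.0 for mito, 55.7 for LM and 46.7 for eG1-1, over group means per gene. The 6 neuronal and transport kinesins had medians of 31.9, 29.6 and 24.7. The median of all 6078 genes was 49.2, 48.7 and 48.5. Of the 12 mitotic kinesins, 9 had a negative slope over the order mito, LM and eG1-1, against 3 of the 6 neuronal and transport kinesins and 3041 of the 6078 genes. The 9 include Kif22, measured at the end it shares with Maz.

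Kif23 had the steepest slope of the mitotic kinesins. Its percentile was 67.3 and 75.2 in mito, 61.9 and 53.7 in the LM lists, and 30.6 and 19.0 in eG1-1. The 3 groups did not overlap, and both replicate numbers ran in the same order. The slope of −23.2 percentile points per step gave the smallest p the 90 assignments of the 6 lists allow (exact two-sided permutation p = 0.0222, adjusted over all genes 0.45), so it did not pass the adjustment. At this p, 1 of the 20 kinesins was called, against 4.94% of the 6078 genes, with 2.4% falling and 2.53% rising. In this test the count of kinesins is thus near the background. With 1 list left out fewer assignments exist, and the smallest p of the exact test was 0.0333 or 0.0667. It was reached by 2 of 20 kinesins without mito replicate 1, against 5.83% of genes, and by 5 of 21 without mito replicate 2, against 6.44%. Without LM replicate 1 these were 6 of 20, against 12.6%, and without LM replicate 2 they were 4 of 22, against 11.8%. Without eG1-1 replicate 1 they were 2 of 23, against 4.3%, and without eG1-1 replicate 2 they were 2 of 20, against 4.85%. Kif23, whose groups did not overlap, was there in every case, while Kif20b, Kif21b, Kifc2 and Kif4 were called as rising. The counts moved with single lists and were not tested against these shares. With replicate number as a block, 4 of 20 kinesins reached the smallest p of that test, 0.0556, namely Kif23, Kif1b, Kif5b and Kif24, against 10.5% of genes. Across all genes 0 passed an adjusted p of 0.05, and 565 genes and 2 kinesins had an unadjusted p under it by the exact permutation test; the second kinesin was Kif5b (p = 0.0444, adjusted 0.478).

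**Figure D5:**
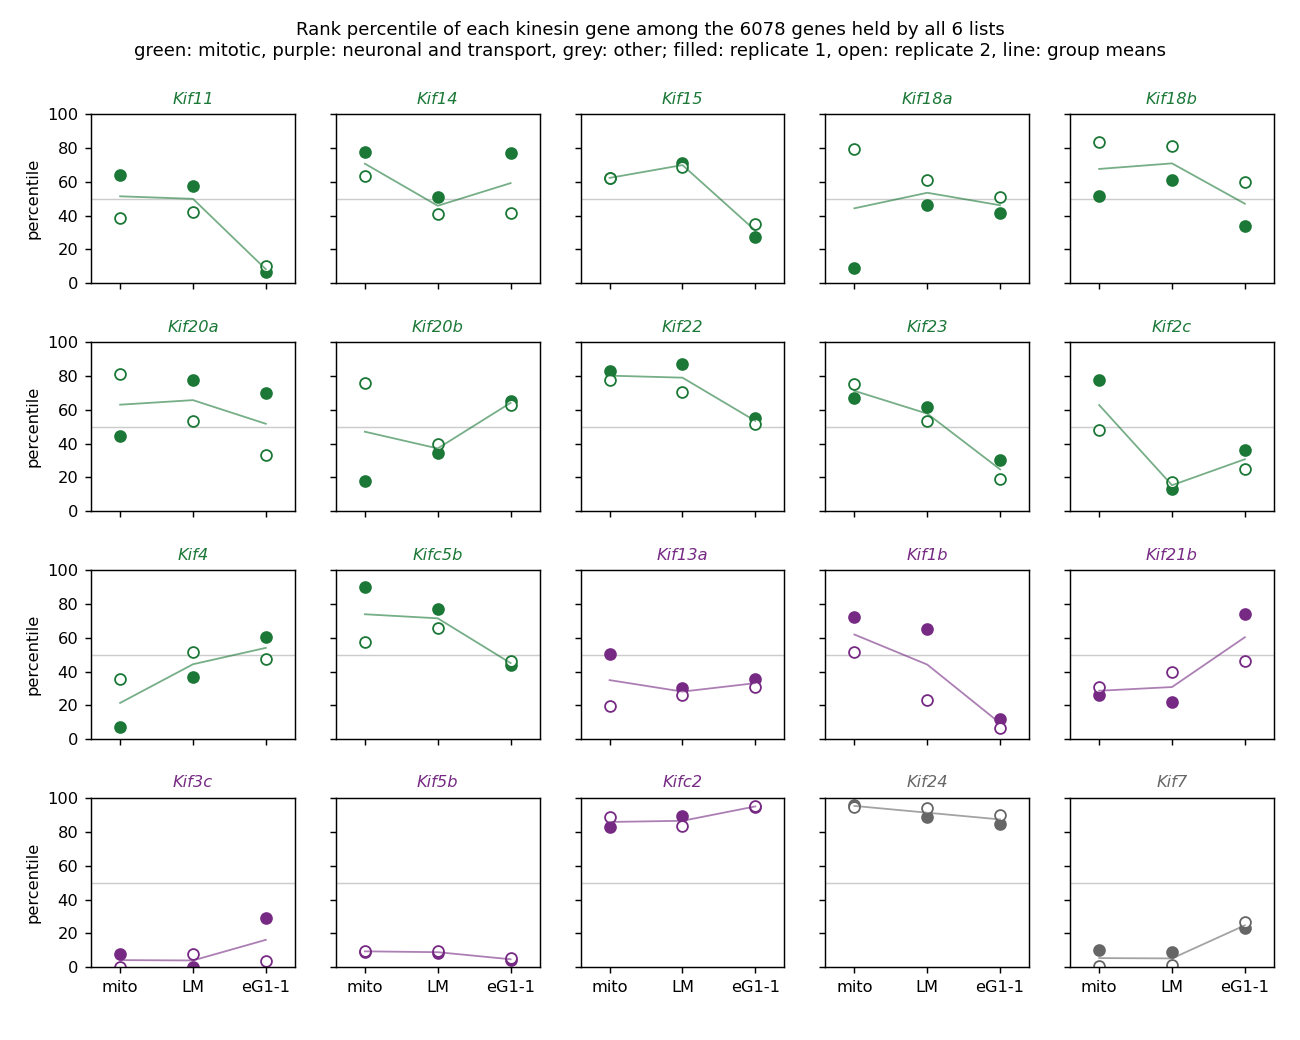
Rank percentile (0 to 100) of the 20 kinesin genes held by all 6 lists among the 6078 genes so held, by group; filled and open points are replicates 1 and 2 and lines join the group means. Kif23 stands at 67.3 and 75.2 in mito and at 30.6 and 19.0 in eG1-1, and Kif4 runs the other way.

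In both eG1-1 lists, 6 of the 12 mitotic kinesins stood below both mito lists and 1 stood above both, and among all 20 kinesins the counts were 9 and 4; over the 6078 genes 24.2% stood below and 23.5% above. With 2 lists against 2 an exact p cannot go below 0.33, so these are descriptions. Kif11 stood at 6.4 and 10.3 in eG1-1, against 64.4 and 38.6 in mito, and Kif15 at 27.5 and 34.9 in eG1-1, against 62.4 in each mito list. Kif22 stood at 55.4 and 51.5 in eG1-1, against 83.2 and 77.5 in mito, again at the end shared with Maz. Scores over its own promoter window ran the other way, with no peak and 46 in mito and 73 and 133 in eG1-1. Its place in the count thus rests on the shared end. Kifc5b (44.0 and 46.3 in eG1-1, 90.1 and 57.8 in mito) and Kif2c (36.4 and 25.2 in eG1-1, 77.6 and 48.2 in mito) were the other members of this kind. For Kifc5b the 46.3 comes from a peak at its 3′ end and the other values from its start. Kif4 was the exception, with 60.4 and 47.7 in eG1-1, against 7.4 and 35.6 in mito. Its slope was 16.3 (exact permutation p = 0.0667, adjusted 0.484), and that of Kif11 −21.6 (exact permutation p = 0.0667, adjusted 0.484).

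The step from mito to LM was less uniform. Kif2c stood at 13.1 and 17.6 in LM, against 77.6 and 48.2 in mito. Kif14 and Kif23 also stood lower in both LM lists than in both mito lists, while Kif15 and Kif4 stood higher. These are 3 below and 2 above among 12 mitotic kinesins, against 16.9% and 17.2% of all genes. From LM to eG1-1, 6 of the 12 stood below both LM lists and 2 above, against 18.4% and 18.7% of all genes. The low members were Kif11, Kif15, Kif18b, Kif22, Kif23 and Kifc5b, and the high ones Kif20b and Kif2c. Of the low members, Kif22 was again measured at the end shared with Maz.

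Within the neuronal and transport class, Kif1b, which carries mitochondria and synaptic vesicle precursors, also had a negative slope: its percentile was 72.5 and 51.5 in mito, 65.4 and 23.0 in the LM lists, and 9.5 ± 3.7 in eG1-1 (mean and SD, n = 2), from scores of 155 and 133, 141 and 50, and 44 and 59. Its LM and mito lists overlapped, and the slope of −26.3 was not called (exact two-sided permutation p = 0.0667, adjusted 0.484). Kif21b, a motor of dendrites and lymphocytes, ran the other way, with 26.3 and 31.2 in mito, 21.8 and 40.0 in the LM lists, and 74.4 and 46.3 in eG1-1. Kif5b, the widely used heavy chain of conventional kinesin, stood low throughout, at 9.2 and 9.5, 8.4 and 9.3, and 4.1 and 5.3. Kifc2 had the highest scores of the class, 191 and 244 in the mito lists, 237 and 155 in the LM lists, and 290 and 456 in eG1-1, at an end shared with Cyhr1.

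The class held the 3 kinesins held by both lists of one group and neither list of another. Kif16b, an endosome motor, was held in both mito lists (97 and 63) and in LM replicate 1 (25), and in neither eG1-1 list. The 97 and the 63 belong to different sites, centred at −1471 and −223 bp from the start, and at the second site mito replicate 1 had a peak of 24. Kif16b was the 1 kinesin of 42 held in both mito lists and neither eG1-1 list, against 1.97% of all genes. The nearest eG1-1 peaks lay 1314 and 1164 bp from its nearer end, just outside the 1 kb limit, and at 2 kb this difference was gone. Kif3a, a subunit of the ciliary and neuronal kinesin-2, was the 1 kinesin held in both eG1-1 lists (42 and 98) and neither mito list, against 1.6% of all genes. Its eG1-1 peaks, and that of LM replicate 2 (40), lay at the 3′ end, 878, 698 and 715 bp from it. Over the promoter window of Kif3a the mito lists did hold peaks, with 42 and 86 in the mito lists, 83 and no peak in the LM lists, and 54 and 55 in eG1-1. Kif5a, a neuronal heavy chain of conventional kinesin, was the 1 kinesin held in both eG1-1 lists (167 and 130) and neither LM list, against 2.35% of all genes. It also had a peak in mito replicate 1 (91), and the peak is shared with Dctn2, a dynactin subunit. No kinesin was held in both mito and no LM list, in both LM and neither mito list, or in both LM and neither eG1-1 list, against 2.17%, 0.356% and 0.48% of all genes. Each of these counts is near the background and moved with single lists. In mito and not eG1-1, 5 kinesins were held without eG1-1 replicate 2, against 7.88% of all genes in that setting, and 4 without mito replicate 1, against 3.72%. In eG1-1 and not mito, 3 were held without mito replicate 1, against 2.6% of genes, and 3 without eG1-1 replicate 1, against 5.43%. In mito and not LM, 4 were held without LM replicate 1, against 11.3%, and 1 without mito replicate 1, against 5.21%, or mito replicate 2, against 3.54%. In LM and not mito, 2 were held without LM replicate 2, against 2.29%, and 1 without LM replicate 1, mito replicate 1 or mito replicate 2, against 1.11%, 0.905% and 1.63%. In LM and not eG1-1, 4 were held without LM replicate 2, against 3.27%, and 4 without eG1-1 replicate 2, against 3.29%. In eG1-1 and not LM, 3 were held without LM replicate 1, against 8.83%, 2 without LM replicate 2, against 3.82%, and 2 without eG1-1 replicate 1, against 7.59%.

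Kif5c, another neuronal heavy chain, scored 31 and no peak in the mito lists, 69 and 62 in the LM lists, and 144 and 135 in eG1-1, all at its start. Kif1c, a motor for return transport to the endoplasmic reticulum, scored 106 and 126 in the mito lists, 172 and no peak in the LM lists, and 101 and 169 in eG1-1. Kif13a, an endosome motor, scored 108 and 84 in the mito lists, 80 and 53 in the LM lists, and 75 and 113 in eG1-1, with peaks centred between −897 and −754 bp of its start. Kif3c (21 to 66) was also held by all 6 lists. Kif17, the motor of cilia and dendrites, had peaks of 29 to 54 in 5 lists and Kif3b of 49 to 74 in 4. Kif1a, the motor of synaptic vesicle precursors, had peaks of 21 to 45 in 4 lists, all at its 3′ end, and no list had a peak over its promoter window. Kif21a had peaks in 2 lists, and Kif13b and Kifc3 in 1 each.

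Of the 11 other kinesins, 2 were held by all 6 lists, against 27.8% of all genes, and 4 by none, against 38.6%, namely Kif12, Kif26a, Kif27 and Kif28. Kif24, a centriole protein that restrains cilium formation, scored 297 and 295 in the mito lists, 231 and 219 in the LM lists, and 199 and 357 in eG1-1. It was the highest of the kinesins in both mito lists and LM replicate 2, and Kifc2 was higher in the 3 other lists. Its peak is shared with Nudt2 and lies over its start, where the promoter has 4 CCAAT boxes and no CHR letters. Kif7, a ciliary regulator of Hedgehog signalling, scored 51 and 32, 49 and 22, and 58 and 104. Kif2a, a depolymerase of spindles and axons, was held by both mito lists (53 and 73), both LM lists (94 and 27) and eG1-1 replicate 2 (31). Kif9 had peaks in 5 lists, Kif19a and Kif26b in 2 each and Kif6 in 1. Kif26a, held at neither annotated end, had peaks over its promoter window in 5 lists (29 to 88), and that start lies between the annotated ends.

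Inside the genes, more than 1 kb from either annotated end, the neuronal and transport kinesins had 57 regions with a peak in any list. The mitotic kinesins had 12, and the gene lengths were 1544 and 547 kb in total. Such regions can still lie over a start in the promoter table, as that of Kif3a did (chr11:53566918-53567776), which both mito lists held. Of the 57, both mito lists held 8, both LM lists 8 and both eG1-1 lists 19 (33.3%); of 26411 regions inside all protein-coding genes they held 19.6%, 13.7% and 31.3%. Of the 12 in mitotic kinesins both mito lists held 0, both LM lists 0 and both eG1-1 lists 2. Regions held by all 6 lists lay in Kif13a (chr13:46758521-46759431), Kif17 (chr4:138282675-138283351), Kif21b (chr1:136173777-136174675) and Kifc3 (chr8:95142715-95144534), and 5 more in Kif26b, Kif27, Kif28 and Kif6. The region in Kif27 (chr13:58359050-58359697) had the highest score of these 9 in 5 lists but not in mito replicate 1, where 4 others were higher. It scored 69 and 156 in the mito lists, 87 and 127 in the LM lists, and 174 and 255 in eG1-1. The 12 regions of mitotic kinesins included none held by all 6 lists, against 9.39% of regions inside all protein-coding genes.

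Of 19 mitotic partners, 19 were held in each mito list, 18 and 16 in the LM lists, and 16 and 18 in eG1-1. The lists held 35.7% to 52.7% of all genes. In all 6 lists 15 partners (78.9%) were held, against 27.8% of all genes. Prc1, which bundles midzone microtubules and binds Kif4, scored 175 and 285 in the mito lists, 259 and 226 in the LM lists, and 199 and 336 in eG1-1. Racgap1, the partner of Kif23 in centralspindlin, scored 102 and 84 in the mito lists, had no peak in the LM lists, and scored 63 in eG1-1 replicate 1 only. Median percentiles of the 15 partners were 69.3 for mito, 66.1 for LM and 71.8 for eG1-1. Of 20 transport partners, 10 were held in all 6 lists, against 27.8% of all genes, and 5 in none, against 38.6%, namely Kifap3, Klc3, Mapk8ip1, Trak1 and Dync1i1. Dctn1, the large dynactin subunit, was the 1 transport partner of 20 held in both mito lists (23 and 51) and neither eG1-1 list, against 1.97% of all genes. It was also the 1 held in the 2 mito lists and no LM list, against 2.17%, so both counts are near the background.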

How the data were processed

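ATAC-seq peak lists of 6 samples (mito, LM and eG1-1, 2 replicates each) were used. Per the submitters' processing notes, the tools were MACS2 2.2.4, STAR 2.7.0e, bedtools, deepTools 3.5.1, SAMtools 1.10 and Picard, with mm10 and GRCm38. Roles, calling threshold and any Tn5 offset are not given in the sources used. The deposited peak names show peaks called per sample on paired-end fragments, without pooling. Column 5 is the authors' deposited score, a whole number from 13 up whose scale is not given. Between lists it was compared as a rank percentile within each list, with ties averaged, and directly only in the log2 alternative; its median over lists served to choose and order members.

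Gene positions came from RefSeq's gene table (GRCm38.p6), without strand; 13 mitochondrial genes were left out. Strand and starts came from RefSeq's promoter table, with the first entry of a gene used for motifs. A gene is held where a peak overlaps by at least 1 bp. Trends over the 3 groups were tested on the slope by exact permutation, two-sided, with Benjamini-Hochberg adjustment over all genes held by all 6 lists. Python 3.11.15, numpy 2.4.6 and pandas 2.3.3 were used, and overlaps and the trend test were tested on simulated data and against bedtools. Lists with the same replicate number share a code in the peak names, taken as a sequencing run. Deviations of same-numbered lists correlated at 0.0447 (mito, LM), 0.0509 (mito, eG1-1) and 0.0501 (LM, eG1-1). Since nothing says that replicates were separate cultures, p-values reflect a spread that may be technical.

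Values in every list were printed for members that differed between groups, the mitotic members, the 6 highest neuronal and transport members and trend calls; other named members and Racgap1, Prc1 and Dctn1 were chosen after their values were seen. Members, classes and lists were chosen with earlier results of these data known. Alternatives were other windows, overlap rules, score minimum, list length, gene ends, replicate block, log2 score, and leaving out each list.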

Additional observations from a re-analysis of the deposited data

How the results depend on the processing

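Read depth is unknown, so absence of a peak could not be told apart from shallow reading. Kif23 had the smallest trend p with a falling slope in the reported test and under all alternatives run, including each list left out. It was named because of this p, and its scores over the promoter window were those of the reported setting. Its groups did not overlap, and leaving out a list keeps that order. Its return in these settings is therefore no added support. The number of kinesins at the smallest p was 2 with a 500 bp window, a centre rule, a 100 bp overlap or without shared ends. It was 3 with a 2 kb window and with log2 scores. In these settings 4.73% to 5.15% of all genes tested reached it. With the replicate block, where pairing was within replicate numbers, 4 kinesins did, against 10.5% of genes. The block applies to the trend alone.

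With a 500 bp window, the differences between class shares were 25.2 percentage points (mito), 34.0 (LM) and 27.5 (eG1-1), and 0 kinesins were held in eG1-1 and not mito. At 2 kb the differences were 16.4 (mito), 16.4 (LM) and 13.4 (eG1-1), and 0 kinesins differed in status between eG1-1 and mito in either direction. At a score of at least 50, 12 kinesins and 3 neuronal and transport kinesins were held in all 6 lists, the differences between class shares were 35.7 for mito, 56.9 for LM and 32.8 for eG1-1, and 2 kinesins were held in mito and not eG1-1, 3 in mito and not LM, 1 in LM and not mito, and 2 in eG1-1 and not LM. At equal list length (20639 peaks) 3 neuronal and transport kinesins were held in all lists, the differences were 28.2 (mito), 37.0 (LM) and 32.8 (eG1-1), and 3 kinesins were held in mito and not eG1-1, 1 in mito and not LM, and 2 in LM and not eG1-1. By peak centre, 0 were held in eG1-1 and not mito. At the annotated start alone (33 kinesins), 3 neuronal and transport kinesins were held in all lists, the differences were 20.3 (mito), 33.2 (LM) and 24.8 (eG1-1), and 0 were held in eG1-1 and not mito or not LM. Without shared ends (40 kinesins), 13 kinesins and 7 mitotic ones were held in all lists, the differences were 10.7 (mito), 8.04 (LM) and 4.46 (eG1-1), and 2 kinesins were held in eG1-1 and not mito. Over promoter windows, an alternative chosen after seeing the data, 11 kinesins and 1 neuronal and transport kinesin were held in all lists, the differences were 4.9 (mito), 36 (LM) and 9.44 (eG1-1), and 2 were held in mito and not eG1-1, 0 the other way, 2 in mito and not LM, and 1 in LM and not eG1-1. The cause was not tested beyond fewer peaks or genes entering. Of all protein-coding genes, 6078 were held in all 6 lists in the reported setting. The number was 3909 at a score of at least 50, 5096 at equal list length and 4741 at the annotated start alone. Without shared ends it was 3972, and over promoter windows 4300. The share of all genes behind the status counts was not computed in these settings, so those counts are not results about kinesins.

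With 1 list left out, kinesins held in all lists ranged from 20 to 23, mitotic ones from 12 to 13 and neuronal and transport ones from 6 to 8. The differences ranged from 22.3 to 22.3 in mito, 10.5 (without LM replicate 2) to 39.9 (without LM replicate 1) in LM, and 10.5 to 21.0 in eG1-1. Counts of status ranged from 1 to 5 for mito and not eG1-1 (5 without eG1-1 replicate 2), and 1 to 3 for the reverse. They ranged from 0 to 4 for mito and not LM (4 without LM replicate 1), and 0 to 2 for the reverse (2 without LM replicate 2). For LM and not eG1-1 they ranged from 0 to 4 (4 without LM replicate 2 or eG1-1 replicate 2), and 1 to 3 for the reverse. Kinesins at the smallest trend p ranged from 2 to 6. The 6 were without LM replicate 1, against 12.6% of genes, at an exact permutation p of 0.0667. There were 5 without mito replicate 2, against 6.44% of genes.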
